A study of Bos taurus with 8 samples.

Results

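Transcripts of B cells and of the antibody-secreting plasma cells they give rise to were examined in bovine blood granulocytes. The group consists of 5 listed genes: MS4A1, CD79A, CD79B, BLK and JCHAIN. Of these, 4 had a probe on the array, 1 probe each, among 6848 genes and 15208 probes in all, and no probe was matched to CD79B. CD79A and JCHAIN were matched by the transcript accession of the probe (the array design calls JCHAIN by its former symbol IGJ), MS4A1 and BLK by gene identifier. All 4 probes were well above background on 8 of 8 arrays and passed the filter on dim probes. On no array did a member's spot hold a surrogate value, the number that the scanner software puts in place of a signal it cannot tell from background.

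B cells recognise antigen through a membrane immunoglobulin that has almost no cytoplasmic tail and signals through the paired chains CD79A and CD79B. BLK is a SRC-family kinase that can phosphorylate those chains, and MS4A1 encodes CD20, a membrane protein carried by B cells through most of their life and lost on plasma cells. JCHAIN links the units of polymeric IgM and IgA and is made mainly by antibody-secreting cells. Granulocytes are chiefly neutrophils, which are not known to make immunoglobulin.

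Each of 4 cows gave granulocytes at 2 times: on day 7 of the oestrous cycle, not pregnant and before an embryo was transferred, and on day 21, pregnant after the transfer. Cy3-labelled copies of the total RNA were read on Agilent arrays in 1 colour, with 4 arrays for each day. Breed, age and the way the granulocytes were isolated are not given in the sources used here. Every cow was sampled in the same order, so day, pregnancy, the transfer itself and calendar time cannot be told apart.

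The median processed signal of an array lay between 49.1 and 186.9 intensity units, and 56.8% to 74.9% of probes were well above background. The lowest median, 49.1, was that of the day 21 array of cow 2. That array also had 129 spots flagged as outliers, against 0 to 12 on each of the others. The arrays lay on 4 slides. Cow 2 was split, with its day 7 sample on slide 1 beside the pair of cow 1 and its day 21 sample by itself on slide 2, while the pairs of cows 3 and 4 had slides 3 and 4 to themselves. Of 19 neutrophil markers, 16 had a tested probe, and 13 of these were well above background on 8 of 8 arrays. The day 21 array of cow 1 stood apart on several of these markers, which are named here after their values were seen. CXCR1, a chemokine receptor of neutrophils, had a log2 level of -6.14 there against 4.02 to 4.31 on the other day 21 arrays, the cathelicidin CATHL1 -8.70 against -4.19 to -3.04 and the gelatinase MMP9 -3.40 against 0.35 to 1.36. CATHL1 was well above background on 3 of 4 day 21 arrays and held a surrogate value on 1 array. Its signal of 3.22 on the day 21 array of cow 1 is near the floor. Because that array stood apart, results are given without cow 1 where they rest on it. Markers of other blood cells were measurable in the same RNA, among them 10 of 14 T cell markers, 9 of 10 NK cell markers and 7 of 10 monocyte and macrophage markers with a tested probe. Of these, 9 of 10, 8 of 9 and 6 of 7 were well above background on 8 of 8 arrays. Such counts therefore do not check the labelled cell type.

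Every level below rests on a single oligonucleotide, so the stretch of transcript each probe reads is shown first. The probes are 60 bases long. The MS4A1 probe is given whole; of the other 3 members, the last 30 bases are given, since where they lie in their transcripts is not stated in the files. All sequences are written 5′ to 3′ in lower case as the scanner files list them, and the capitals mark the hexamer AATAAA, the usual signal for polyadenylation.
MS4A1: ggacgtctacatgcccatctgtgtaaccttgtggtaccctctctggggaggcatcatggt
CD79A: tagtgatAATAAAtccttcccaacggcaaa
BLK: tgcgctcagcactttgggacttttcggaaa
JCHAIN: ttatgtactccaaaatatgtattctctagc
The hexamer, searched on the listed strand, was found in the CD79A probe and in no other member's probe; it occurs in 11.3% of the 15208 probes. The JCHAIN probe is poor in G and C, with 30% against 50% for CD79A and 55% for MS4A1 and BLK, where the median over all probes is 43.3%. No other probe shares a sequence with any of them. Because probes differ in how well they hybridise, the levels of different genes are not read as relative amounts of RNA. Sums of signal over lists, given further on, are weighted toward the brighter probes.

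Levels are log2 signals from which the 75th percentile of that array's log2 signals was subtracted, so that 0 is the signal below which 75% of an array's probes lie. In the comparison of day 21 with day 7, limma, a linear model fitted to all 10459 tested probes, called 0 of them at an adjusted p under 0.05 (percent called 0%). At an unadjusted p under 0.05 there were 983, or 9.4%, of which 4.99% of all probes were higher on day 21 and 4.41% lower. None of the 4 members is in either count. On average MS4A1 and CD79A were higher on day 21, BLK was lower and JCHAIN changed least, by 0.22. The 95% interval of each change, from this fit without pairing by cow, held 0. With cow as a block the errors were smaller, and MS4A1 had an unadjusted p of 0.0402 (adjusted p = 0.247 in limma). No member passed the threshold there either. A bulk level falls both when fewer cells of a type are present and when each holds less of the RNA, and these cannot be told apart here.

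CD79A, the signalling chain of the antigen receptor, differed in the most even way. Its day 7 levels were 1.96, 1.55, 1.56 and 1.61 in cows 1 to 4, and its day 21 levels were 2.54, 2.03, 2.18 and 2.02. All 4 day 21 arrays were above all 4 day 7 arrays, with the lowest day 21 value, in cow 4, just over the highest day 7 value, in cow 1. Such a separation upward was found for 3.09% of the 10307 probes measured on every array. Within the cows the difference was 0.59, 0.48, 0.62 and 0.41, a mean of 0.52 ± 0.0973 (SD, n = 4), or 1.33-fold to 1.54-fold. That SD compares with a median of 0.644 for the same quantity over all these probes, and 0.776% of them had a smaller one. Differences at least as large as the smallest of these, 0.41, in all 4 cows were shown by 5.02% of probes. In limma, which sets the groups side by side without the pairing, the log2 change was 0.52 ± 0.32 (SE), or 1.44-fold with a 95% interval of 0.882 to 2.35, and did not pass (adjusted p = 0.642).

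MS4A1, the gene of CD20, was likewise higher on day 21 in each cow, but by amounts that differed more. The day 7 levels were 0.15, -0.87, -1.96 and -1.03 in cows 1 to 4, and the day 21 levels 0.39, -0.17, -0.79 and -0.43. The groups overlapped: cow 1 on day 7 was higher than 3 of the 4 day 21 arrays. The within-cow differences of 0.25, 0.70, 1.18 and 0.60 averaged 0.68 ± 0.38 (SD, n = 4), with the smallest in cow 1, which had the highest level on both days, and the largest in cow 3, which had the lowest. A difference upward in 4 of 4 cows was shared by 15.7% of probes, and 2 of the 4 members, CD79A and MS4A1, had it. The limma log2 change was 0.68 ± 0.48 (SE), 1.60-fold with a 95% interval of 0.768 to 3.34 (adjusted p = 0.680). It was 0.34 without the day 7 array of cow 3 and 1.04 without that of cow 1.

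BLK, the kinase, went the other way in 3 of the 4 cows. Its levels were 4.71, 3.44, 3.86 and 3.69 on day 7 and 3.59, 3.49, 3.34 and 3.20 on day 21. The day 7 value of cow 1 stood above the rest, and the day 21 values lay close together, with an SD of 0.17 against 0.55 on day 7. The within-cow differences were -1.13, 0.05, -0.52 and -0.48, a mean of -0.52 ± 0.48 (SD, n = 4). In all, 20.6% of probes were lower on day 21 in exactly 3 of 4 cows. The limma log2 change was -0.52 ± 0.37 (SE), 0.698-fold with a 95% interval of 0.397 to 1.23 (adjusted p = 0.682), and it was -0.26 without the day 7 array of cow 1. Whether this change differs from that of CD79A or MS4A1 was not tested.

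JCHAIN, the joining chain of polymeric antibodies, varied most between animals. Levels on day 7 were -1.14, -0.06, 1.37 and 0.57 in cows 1 to 4, and on day 21 they were -0.81, 0.45, 1.56 and 0.44. The order of the cows was almost the same on both days, with cow 1 lowest and cow 3 highest, and the groups overlapped over nearly their whole range. Within the cows the differences were 0.33, 0.50, 0.19 and -0.14, averaging 0.22 ± 0.27 (SD, n = 4). The limma log2 change was 0.22 ± 0.62 (SE), 1.17-fold with a 95% interval of 0.451 to 3.02 (adjusted p = 0.934). When slides were fitted as fixed blocks, where the day 21 sample of cow 2 adds nothing because it is alone on its slide, the change was -0.07 ± 0.36, and that fit sets the day 21 array of cow 1 partly against the day 7 array of cow 2. With both arrays of a cow left out the change stayed between 0.13 and 0.34. With 1 array left out, which leaves its partner unpaired and so shifts the mix of cows, it ran from -0.22 (without the day 7 array of cow 1) to 0.63 (without the day 21 array of cow 1), and was -0.16 without the day 21 array of cow 3 and 0.62 without the day 7 array of cow 3. Without cow 1 the changes of the 4 members were 0.82 for MS4A1, 0.50 for CD79A, -0.32 for BLK and 0.19 for JCHAIN.

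**Figure D1:**
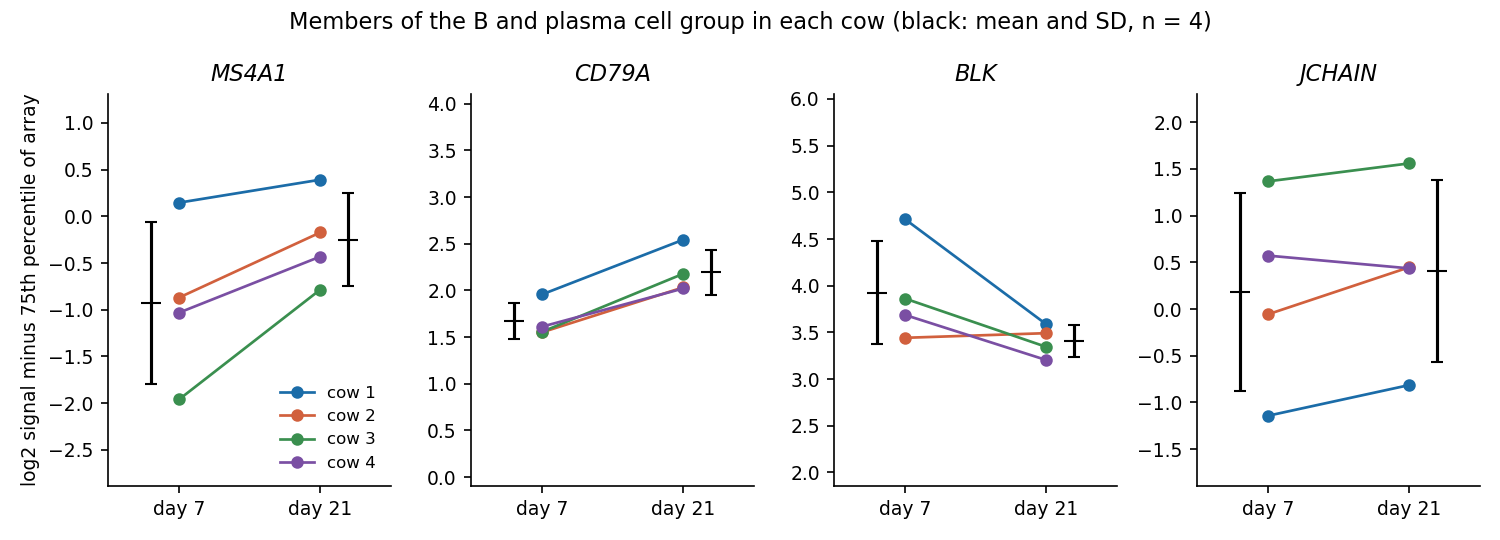
Level of each member on day 7 and day 21, in log2 units above the array's 75th percentile; each coloured line joins the 2 arrays of a cow, and black bars give the mean and SD of 4 arrays. Panels span the same number of log2 units but start at different levels. The lines of CD79A run parallel, from 1.55 to 1.96 on day 7 to 2.02 to 2.54 on day 21. Those of JCHAIN are spread by cow, with differences of -0.14 to 0.50 within the cows.

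Much of the members' spread lay between cows. After the mean of each day was taken out, the share of a probe's variance that lay between cows was 98.2% for JCHAIN, 95.1% for CD79A, 92.6% for MS4A1 and 65.4% for BLK, against a median of 72.4% over all tested probes. A larger share than that of JCHAIN was found for 2.81% of probes. The cow means of JCHAIN ran from -0.98 to 1.46 and those of MS4A1 from -1.37 to 0.27, in opposite order: cow 1 had the highest MS4A1 and the lowest JCHAIN, and cow 3 the reverse. CD79A had its highest levels in cow 1 too, while the other cows lay from 1.55 to 1.61 on day 7 and from 2.02 to 2.18 on day 21. Cows 1 and 2 shared slide 1 on day 7, and there MS4A1 was 0.15 in cow 1 and -0.87 in cow 2, and JCHAIN -1.14 and -0.06. Cows 3 and 4 had a slide each, so for them cow and slide cannot be told apart.

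Within single slides the directions were as follows. On slides 3 and 4, which each hold the pair of 1 cow, the differences are those of cows 3 and 4. On slide 1, the day 21 array of cow 1 set against the mean of the day 7 arrays of cows 1 and 2 gave 0.79 for CD79A, 0.75 for MS4A1, -0.49 for BLK and -0.21 for JCHAIN. Fitted with slides as fixed blocks, limma gave 0.62 ± 0.29 for CD79A (adjusted p = 0.470), 0.83 ± 0.35 for MS4A1 (adjusted p = 0.443) and -0.50 ± 0.37 for BLK (adjusted p = 0.675).

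The genes whose levels over the 8 arrays ran most like each member were found among 4989 other genes by Pearson's r, given here as a description, since the 8 arrays come from 4 cows and share slides. For MS4A1 they were ARHGAP24 (r = 0.98), RUNDC3A (0.97) and ST8SIA1 (0.96). For CD79A they were ARPC5L (0.93), PWWP2B (0.92) and PNPLA7 (0.90), and for BLK ARHGEF18 (0.97), KIF3A (0.97) and ZNF236 (0.94). JCHAIN was tracked by ARFGAP3 (0.99), TAGLN2 (0.98) and EEF1A1 (0.98), of which EEF1A1 is a translation factor made by nearly every cell. After quantile normalization r was 0.40 for TAGLN2 with JCHAIN, and after normexp background correction it was 0.50 for PWWP2B with CD79A; the other 10 pairs stayed at 0.82 or above in both. No member was among the genes listed for another. Between MS4A1 and CD79A r was 0.77, between MS4A1 and JCHAIN -0.77, and BLK had r of 0.16 with MS4A1, -0.14 with CD79A and -0.52 with JCHAIN.

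Antibody chains were read by further probes, chosen by the array's own gene names and descriptions with their values in view. The antibody families contain many similar copies, so which of them a probe binds is uncertain. These 2 probes lie in sequences that the array design names as constant regions of the mu heavy chain and of the IgG1 heavy chain. They are shown whole because their names differ in the class of antibody. Whether each binds only its named class was not tested.
IGHM: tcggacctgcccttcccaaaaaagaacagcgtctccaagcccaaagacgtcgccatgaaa
IGG1C: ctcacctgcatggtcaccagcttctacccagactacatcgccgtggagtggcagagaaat
IGHM, the heavy chain of IgM, had levels of 1.82, 3.63, 2.35 and 2.84 on day 7 and 4.16, 3.46, 3.17 and 2.77 on day 21. It was much higher on day 21 in cow 1, by 2.34, and higher by 0.81 in cow 3, but differed by -0.17 and -0.07 in cows 2 and 4. The log2 change of 0.73 ± 0.47 (SE) did not pass in limma (adjusted p = 0.658), and it was 0.19 without cow 1. The IgG1 probe, IGG1C, was also higher in cow 1 (by 1.64) and lower in the other cows, with differences of -0.87, -0.09 and -1.61, for a log2 change of -0.23 ± 0.56 (adjusted p = 0.918), or 0.01 with slides as fixed blocks. A probe described as the constant region of IgG2a, IgCgamma, gave -0.46 ± 0.82 (adjusted p = 0.886), with -2.25 in cow 4 alone. In cow 1, where IGHM and IGG1C were 2.34 and 1.64 higher on day 21, JCHAIN was 0.33 higher and CD79A 0.59 higher; whether these differ was not tested. The day 21 array of that cow is the one on which CXCR1, CATHL1 and MMP9 were low, and the part of this in the antibody probes was not tested. Without cow 1 the log2 change of IGG1C was -0.86. A probe for a lambda light chain variable region was not well above background on any of the 8 arrays.

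A transcript described as similar to CD22, an inhibitory co-receptor of B cells, had levels of 0.45, -0.30, -1.63 and -1.36 on day 7 and 0.46, -0.34, -0.86 and -1.23 on day 21. As for MS4A1, cow 1 was highest and cow 2 next on both days, but cow 4 was lowest on day 21, where cow 3 was lowest for MS4A1. Its log2 change was 0.22 ± 0.55 (adjusted p = 0.921), with 0.77 in cow 3 and 0.13 or less in the other cows.

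**Figure D2:**
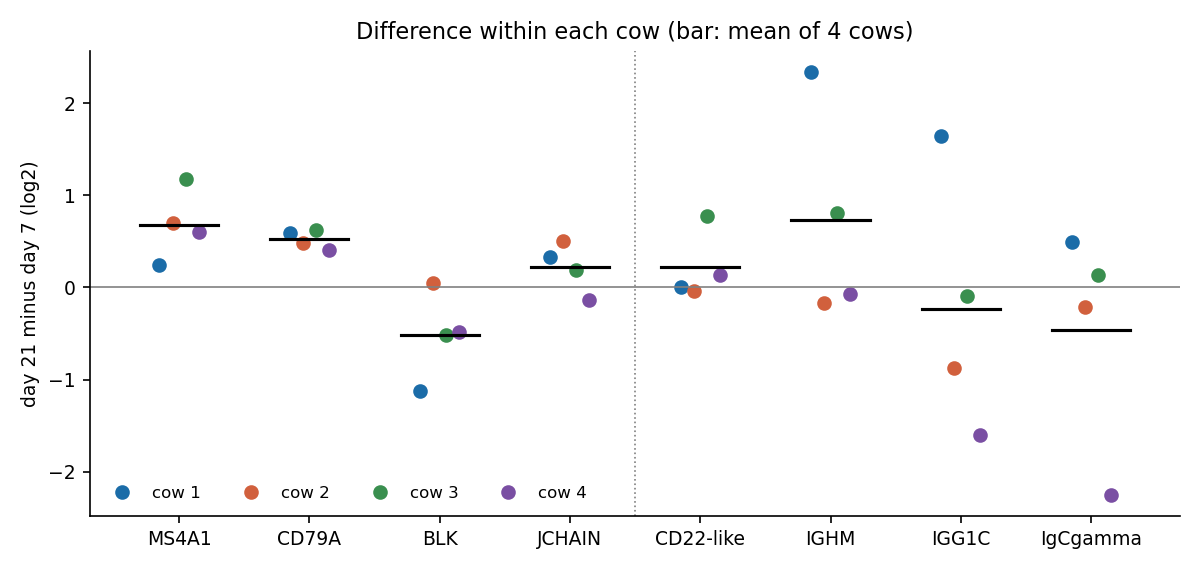
Day 21 minus day 7 in log2 units within each cow (coloured points) for the 4 members, left of the dotted line, and for the CD22-like, IgM, IgG1 and IgG probes on the right; black bars are means of 4 cows. The points of CD79A lie between 0.41 and 0.62, whereas those of IGHM run from -0.17 to 2.34 and those of IGG1C from -1.61 to 1.64.

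The wider B cell pathway was described from lists, each by its tested genes, beside a median log2 change of 0.09 over all 5072 tested genes, of which 2866 were higher on day 21 and 2206 lower. No gene of these lists passed the test over all probes. The 4 members had 3 higher and 1 lower, with a median of 0.37.

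Of the antigen receptor's co-receptors and surface partners, 8 of 16 listed genes were tested; 3 were higher and 5 lower, with a median log2 change of -0.14. CD40, through which helper T cells license B cells, gave 0.78 ± 0.44 (SE; adjusted p = 0.617) and was higher in 4 of 4 cows, by 0.07 to 1.32; it was 0.43 without the day 21 array of cow 1. FCGR2B, the inhibitory Fc receptor of B cells and also of myeloid cells, gave -1.32 ± 0.44 (adjusted p = 0.468) and was lower in 4 of 4 cows, with day 7 levels of 3.78, 4.02, 2.86 and 3.51 against 2.94, 2.74, 1.5 and 1.71. The groups of FCGR2B overlapped through cow 3 on day 7 and cow 1 on day 21. A difference downward in 4 of 4 cows was shared by 14.1% of probes, and one upward by 15.7%. With array quality weights, which let arrays count unequally, FCGR2B passed (-1.63, adjusted p = 0.0284 in limma). That setting called 603 of 10459 probes, where the main fit called 0. CR2, the complement receptor of mature B cells, exceeded background clearly on only 2 arrays per day and gave -0.15 ± 0.43 (adjusted p = 0.938), a sign that turned after quantile normalization (0.16) and normexp correction (0.09).

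Among kinases and adaptors of antigen receptor signalling, 5 of 16 were tested, 2 higher and 3 lower, with a median of -0.26. BTK, the kinase lost in human agammaglobulinaemia, gave -1.27 ± 0.50 (adjusted p = 0.502) with levels of -3.17, -3.47, -3.62 and -3.36 on day 7 and -4.04, -6.16, -4.63 and -3.89 on day 21, when it was well above background on 3 of 4 arrays. Its change was -0.53 after normexp correction, -0.75 with slides as fixed blocks and -0.78 without the day 21 array of cow 2. VAV1, a guanine nucleotide exchange factor, gave -0.81 ± 0.34 (adjusted p = 0.514). In both genes the days did not overlap, a separation downward shown by 2.58% of probes. BTK and VAV1 are used by neutrophils as well as by B cells. SYK, the kinase recruited to phosphorylated CD79A, gave -0.26 ± 0.63 (adjusted p = 0.920), with 1.85 in cow 1 and -0.26 to -1.5 in the others, and was -0.96 without cow 1. BLNK, the adaptor downstream of SYK, gave 0.15 ± 0.51 (adjusted p = 0.944).

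The 3 tested transcription factors of 14 listed gave small changes with wide errors and a median of 0.18. They were POU2AF1, a B cell co-activator (0.03 ± 0.56), SPIB, an ETS factor of B cells (0.20 ± 0.60), and MEF2C (0.18 ± 0.61), with adjusted p values of 0.995, 0.938 and 0.945. Each was higher in 3 of 4 cows, as were 26.9% of probes.

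Genes of plasma cells and antibody secretion had 9 of 16 on the array and 7 tested, 4 higher and 3 lower, with a median of 0.19. XBP1, which drives the secretory programme, gave 0.54 ± 0.64 (adjusted p = 0.819), with -0.99 in cow 1 and 1.75 in cow 2; it was 1.05 without cow 1 and 0.14 without cow 2. PIGR, the receptor that carries polymeric antibody bound by the joining chain across epithelia, gave -1.23 ± 1.02 (adjusted p = 0.740), with -3.47 in cow 1 and a change of -0.48 without that cow. PDIA4, a folding enzyme of the endoplasmic reticulum, gave 0.53 ± 0.40 (adjusted p = 0.698), and another probe of it 1.15 ± 0.53; the first gave 0.13 without cow 1. FKBP11, a peptidyl-prolyl isomerase of the secretory pathway, was the lowest of all these lists at -1.81 ± 1.57 (adjusted p = 0.752), with differences of -2.51, -4.05, -0.29 and -0.37 in cows 1 to 4, and is named after its value was seen. SDC1, a surface marker of plasma cells, was well above background on 1 array and was not tested.

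Survival factors and their receptors, 4 of 12 tested, were all higher on average, with a median of 0.55. TNFSF13B, the B cell activating factor BAFF, which neutrophils and monocytes also release, gave 1.14 ± 0.48 (adjusted p = 0.514). It was higher in 4 of 4 cows, as were 15.7% of probes, by 2.72, 0.10, 1.03 and 0.71 in cows 1 to 4. Its change was 0.61 without cow 1 and 0.70 after normexp correction. BCL2, an inhibitor of cell death, had levels of 2.07, 1.08, 1.59 and 1.23 on day 7 and 2.24, 2.38, 2.40 and 2.08 on day 21. The days did not overlap, a separation upward shown by 3.09% of probes. The log2 change of BCL2 was 0.78 ± 0.34 (adjusted p = 0.522), and 0.85 ± 0.40 at another probe.

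**Figure D3:**
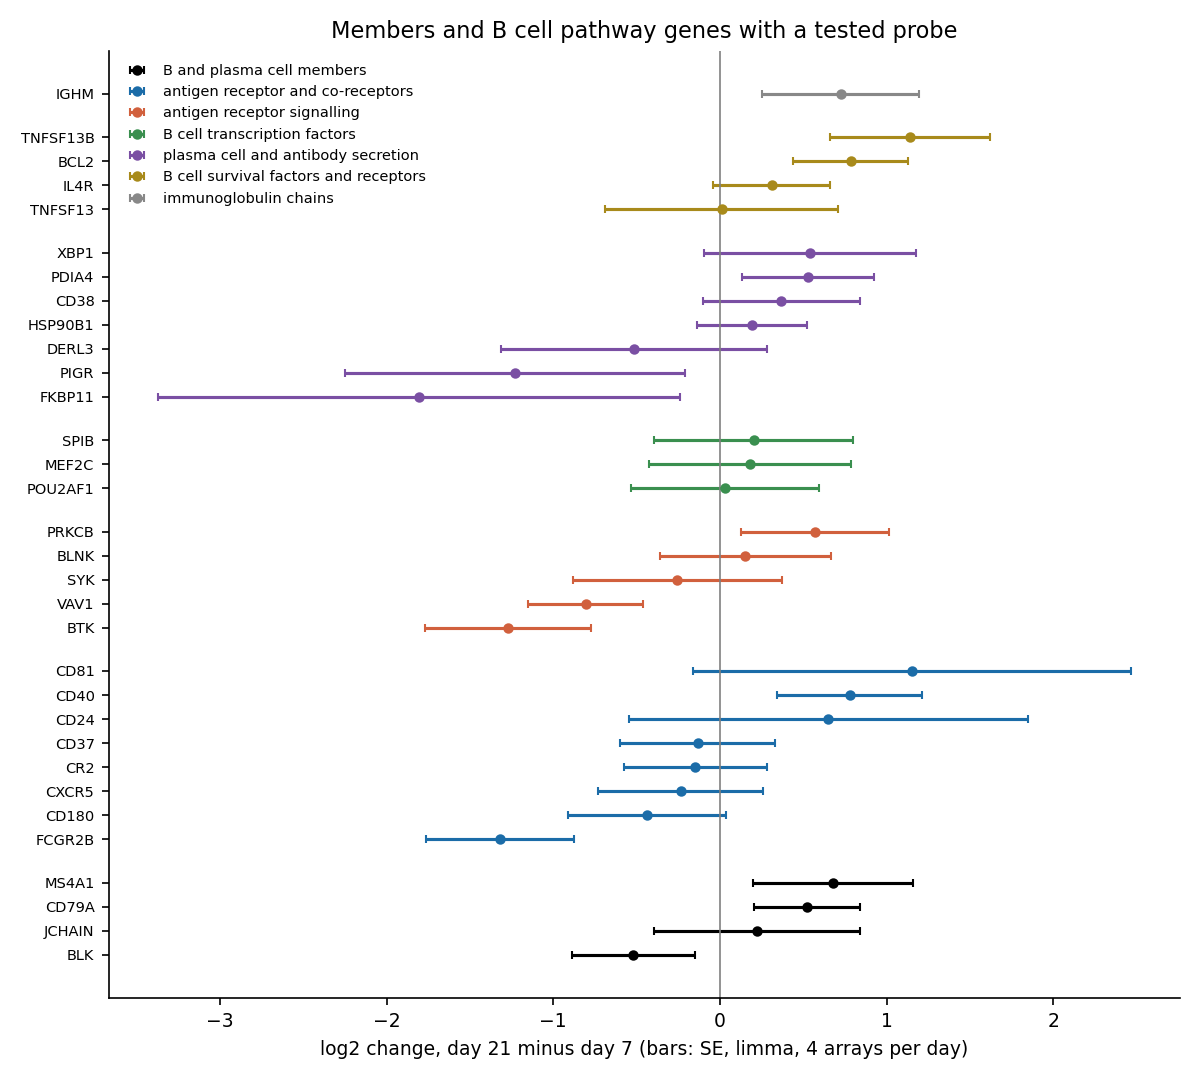
Log2 change from day 7 to day 21 with its standard error for the 4 members (black, at the bottom) and for each gene of the B cell lists with a tested probe, coloured by list. The lowest points are FKBP11 at -1.81, FCGR2B at -1.32 and BTK at -1.27, and the highest are CD81 at 1.15 and TNFSF13B at 1.14; the bars of FKBP11 and CD81 are the widest.

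Other cell types' markers were read in the same arrays, and their part in the members' values was not tested. Summed over 10 T cell markers, the signal on the scale where the 75th percentile is 1 was 21.2 to 36.3 on day 7 and 21.8 to 25.0 on day 21. The 25.0 is the day 21 array of cow 2, whose sum lacks CD3E, left out there as an outlier spot. Of the 10, 3 were higher, and the median log2 change was -0.39. CD3E is counted as higher (0.05) from 3 day 21 arrays, but its mean within-cow difference was -0.47, with 2 cows lower and 1 higher. The 7 monocyte and macrophage markers summed to 6.59 to 9.61 on day 7 and 10.9 to 17.8 on day 21, with 6 of 7 higher and a median of 0.75. NK cell markers gave 6.10 to 17.0 and 5.05 to 17.9, with 7 of 9 higher and a median of 0.28. The 5 tested MHC class II genes, which B cells and monocytes both express, summed to 59.4 to 115.7 and 83.0 to 163.1, with 5 of 5 higher and a median of 0.21. Neutrophil markers summed to 294 to 347 and 189 to 337, with 14 of 16 lower and a median of -0.35. The 189 is the day 21 array of cow 2, whose sum lacks S100A12, left out there as an outlier spot. S100A12 had levels of 6.04 to 7.02 on the other day 21 arrays, so this sum cannot be set against the rest. The median of the within-cow differences was -1.13 in cow 1, -0.49 in cow 2, -0.08 in cow 3 and -0.14 in cow 4. The summed signal of the 4 members was 15.3 to 31.7 on day 7 and 15.4 to 19.7 on day 21. That sum mostly follows its brightest probe, BLK (levels of 3.20 to 4.71, where CD79A had 1.55 to 2.54). It does not reflect MS4A1 and CD79A, which were higher in 4 of 4 cows. The 3 tested platelet markers had a median of 0.10 and the 3 tested erythroid markers one of 0.23, each with 2 of 3 higher. Among these lists of other cells, that of monocyte and macrophage markers alone had day 21 sums all above its day 7 sums. The B cell survival list did so too, with 2.65 to 4.77 on day 7 and 5.13 to 6.20 on day 21. Sums of the antigen receptor signalling list were all lower on day 21, with 25.9 to 28.1 and then 18.6 to 24.4. In the monocyte list CD14 had levels of -0.28 to 1.58 on day 7 and 1.62 to 2.78 on day 21. How often a list separates in this way was not tested.

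**Figure D4:**
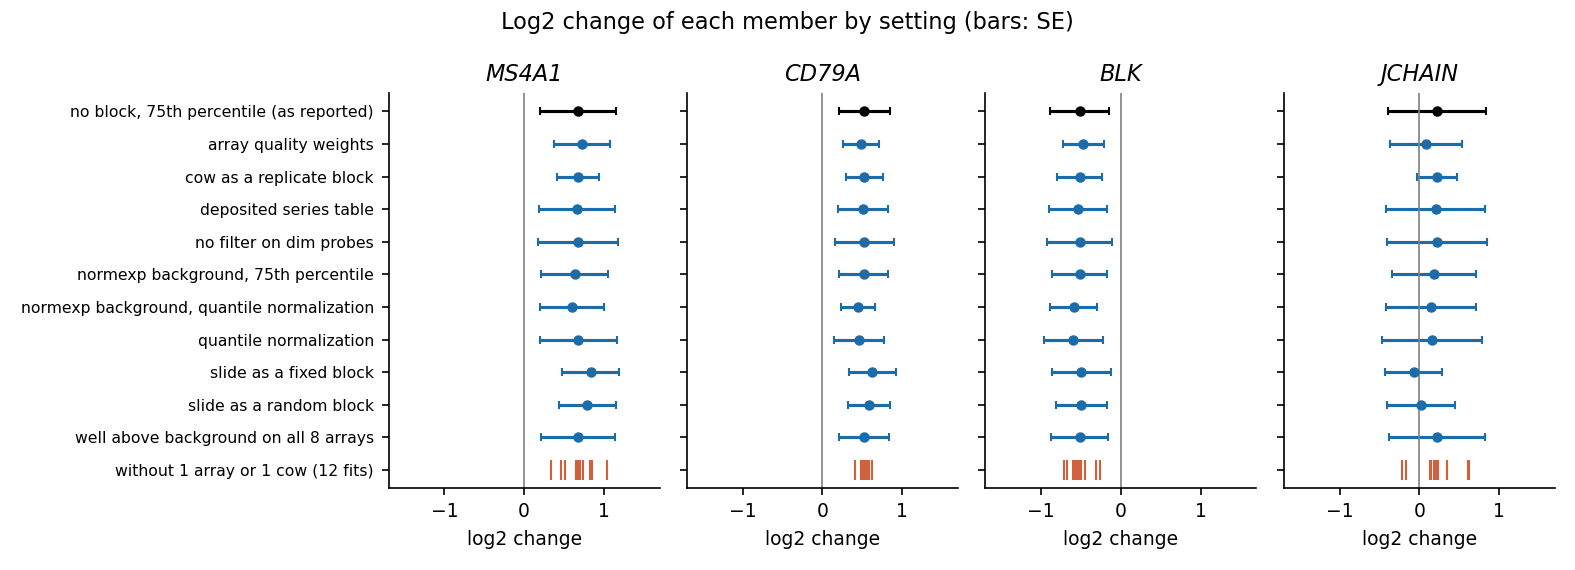
Log2 change of each member with its standard error under each way of processing the arrays (blue) beside the reported value (black); orange ticks are the values with 1 array or both arrays of 1 cow left out. MS4A1 and CD79A stay to the right of 0 and BLK to the left in every fit shown, while JCHAIN crosses it.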

How the data were processed

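Spot intensity was deposited as scanner output; per the submitters' processing notes the software was Agilent Feature Extraction 9.5. Per the file headers, spatial and multiplicative detrending and surrogate values were switched on; the values show no scaling between arrays. The deposited series table holds log2 values, each column being log2 of that signal less 1 constant per array, within 0.00485; it served as an alternative.

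From the intensity, log2 of the processed signal minus the array's 75th percentile was computed, leaving out 536 control spots. Outlier spots were also left out, 129 on the day 21 array of cow 2 and 0 to 12 on each of the others. Probes well above background on at least 4 of 8 arrays were tested, 10459 of 15208. Symbols came from RefSeq (ARS-UCD2.0, names only) for 7187 probes by accession, gene identifier, gene name or description; a gene was read at its brightest probe. Groups were compared with limma 3.58.1 in R 4.3.3, unblocked, with Benjamini-Hochberg adjustment over all tested probes. The fit was also run on simulated independent arrays, without cow or slide effects and with changes larger than those of the members. That run does not test the fit on arrays paired by cow. Samples were paired by the number in their source labels, taken as the cow. Correlations of their deviations were 0.172 to 0.752 within cows and -0.474 to 0.302 between cows, so the ranges overlapped. Cows 1, 3 and 4, whose pairs each shared a slide, had 0.476, 0.752 and 0.436. Cow 2, split over slides, had 0.172. Its day 7 sample gave 0.302 with cow 1 on day 21, on the same slide. Its day 21 sample gave 0.221 with cow 4 on day 7. These values cannot separate cow from slide, so the pairing rests on the labels.

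Named genes are the members, fixed B cell genes, the 2 of smallest p in each B cell list and the 3 genes most correlated with each member. The members and lists were chosen with earlier results of these data known. Only 4 arrays per day limit the precision (median SE 0.456). Cow or slide as a block, other background, scaling and filters, array weights and leaving out arrays or cows were tried.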

Additional observations from a re-analysis of the deposited data

Results flagged for a closer look

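Of 69 sets of 4 values checked for a value far from the others, 3 stood out, and chance alone marks about 1 in 20. The day 7 level of CD79A was 1.96 in cow 1 against 1.55 to 1.61 in the other cows. VAV1 had a day 7 level of 4.52 in cow 1 against 4.02 to 4.09 elsewhere. The within-cow difference of VAV1 was -1.26 in cow 2 against -0.72 to -0.61 in the others.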

How the results depend on the processing

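MS4A1, CD79A and BLK kept their direction and stayed short of the threshold under all 10 other settings and all fits without 1 array or 1 cow. The settings gave 0.60 to 0.83 for MS4A1, 0.45 to 0.62 for CD79A and -0.60 to -0.47 for BLK; without 1 array or cow the values were 0.34 to 1.04, 0.41 to 0.62 and -0.71 to -0.26. JCHAIN was -0.069 with slide as a fixed block and -0.22 to 0.63 without 1 array or cow, with the whole-cow fits at 0.13 to 0.34. With cow as a replicate block the changes are the same but the errors smaller: 0.68 ± 0.26 for MS4A1 (unadjusted p = 0.0402, adjusted p = 0.247 in limma), 0.52 ± 0.23 for CD79A (adjusted p = 0.286), -0.52 ± 0.28 for BLK (adjusted p = 0.363) and 0.22 ± 0.25 for JCHAIN (adjusted p = 0.649); the block called 0 probes and changed no call.

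Over all probes, limma called 603 with array quality weights (2444 at an unadjusted p under 0.05) and 12 with slide as a random block. Weights were 2.55 and 3.5 for cow 4 against 0.358 and 0.362 for cow 1. Without 1 array or cow the count was 0 to 41: 41 without the day 21 array of cow 1, 36 without that cow and 0 otherwise, and no member was among the calls. FCGR2B was -1.63 with array weights (adjusted p = 0.0284). POU2AF1 was -0.037 and SPIB -0.028 with array weights, CR2 0.089 after normexp and 0.16 after quantile normalization, and IGG1C 0.012 with slide as a fixed block. Without 1 array or cow these genes took both signs: CR2 (-0.36 to 0.17), BLNK (-0.12 to 0.62), SYK (-0.96 to 0.16), POU2AF1 (-0.38 to 0.29), SPIB (-0.30 to 0.58), MEF2C (-0.26 to 0.67), IGG1C (-0.86 to 0.24), IgCgamma (-1.07 to 0.14) and the CD22-like probe (-0.10 to 0.61). The median of the co-receptor list was 0.25 with array weights and 0.65 over the 5 genes well above background on 8 arrays, and that of the plasma cell list -0.10 with array weights. Without 1 array or cow the list medians ran from -0.39 to 0.18 (co-receptors), -0.83 to 0.070 (signalling), -0.30 to 0.53 (transcription factors), -0.13 to 0.23 (plasma cell) and 0.45 to 0.78 (survival). The cause of these shifts was not tested, apart from the smaller number of genes under the stricter filter. Each member has 1 probe, so no other probe could be tried.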
